A study of Mus musculus with 2 samples.

Results

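The genes described here encode ligands and adhesion molecules through which stromal cells meet immune cells, together with a death ligand and a death receptor. They were chosen by name: Cd274, Pdcd1lg2 and Cd47 (checkpoint ligands), Lgals9 and Lgals3bp (a galectin and a galectin-binding protein), Icam1 and Vcam1 (leukocyte adhesion molecules), Tnfsf10 (a death ligand) and Fas (a death receptor). Of these 9 genes, 8 were found among the 26082 genes of both libraries, and Pdcd1lg2 was not analysed here. The cells were primary mouse fibro-adipogenic progenitors (FAPs), stromal cells of skeletal muscle that can become adipocytes, sorted from the digested hind limb muscle. Their genotype was WT. They were transfected with TGFBR3 overexpressing plasmids (the group named TGFBR3 OE) or with the vector (control), and both groups were under adipogenic differentiation, with insulin (10 μg/ml), dexamethasone (0.25 μM) and IBMX (0.5 mM) added to DMEM that held 20% FBS. Each group was 1 library of poly(A) RNA. The study's methods name C57BL/6 mice. The number of mice behind each library, the promoter of the plasmid and the share of cells that took it up were not given in the sources used here.

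Checkpoint ligands hold back immune cells. PD-L1, encoded by Cd274, and PD-L2, encoded by Pdcd1lg2, bind PD-1 on T cells, and CD47 binds SIRPα on phagocytes as a signal against engulfment. ICAM-1 and VCAM-1 hold leukocytes through their integrins, TRAIL (Tnfsf10) and FAS act in the death receptor pathway, and many of these genes are known to respond to interferons or to nuclear factor κB (NF-κB) in stromal cells.

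The deposited counts summed to 62321027 in the TGFBR3 OE library and to 83779203 in the control library. With 1 library per group there was no replicate check, so no p-value is given, and the 95% intervals below are exact ones that hold the counting error alone and set 1 library against the other, not the treatments. The targeted gene, Tgfbr3 (ENSMUSG00000029287, chromosome 5 of mm10), had an FPKM of 36.9 in the TGFBR3 OE library and 35.1 in the control library, a log2 ratio of 0.07 (95% interval 0.04 to 0.10). FPKM is the count scaled by gene length and by library size. Because Tgfbr3 was not higher than the median gene (centred value -0.08), "TGFBR3 OE" below means the library labelled so, and each direction is that of the labels. The paper also reports a real-time PCR of TGFBR3 in FAPs given the plasmids or vectors, which was not used here. Among genes at FPKM 1 or more in each library, the median log2 FPKM ratio of TGFBR3 OE over control was 0.15, and centred values have this shift removed. The ratio also fell with the GC content of the transcripts, from a median of 0.46 in the lowest to -0.25 in the highest of 20 bins. Of the FAP markers, Pdgfra (FPKM 30.5 and 32.6 in TGFBR3 OE and control), Ly6a (1013 and 706) and Dcn (18.2 and 16.4) were well detected, whereas Lum (0.27 and 0.03) and Dpp4 (0.05 and 0) were nearly absent.

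All 8 genes had a higher value in TGFBR3 OE, and 2 of them, Cd274 and Lgals9, were at least 2-fold higher (a log2 ratio of (FPKM + 1) of 1 or more). Over all 21364 genes with more than 3 counts in at least 1 library, 1.73% were at least 2-fold higher and 0.58% at least 2-fold lower, and none of the 8 was among the latter. A gene under FPKM 1 in both libraries cannot reach 2-fold on this scale, whatever its counts do. Among the 11213 genes averaging FPKM 1 or more, 3.14% were at least 2-fold higher and 1.03% at least 2-fold lower. All of the 8 but Tnfsf10 belong to this set. The counting interval lay wholly above 0 for all 8, which was so for 46.1% of all genes, and wholly below 0 for 22.8%. Genes of few counts, whose intervals are wide, are among all genes, so these shares are not those of genes of like depth. The median log2 ratio of the 8 genes was 0.57, against 0.06 over all genes and 0.14 over the 11213 genes averaging FPKM 1 or more. Centred, the 8 genes had a median of 0.43 and the same count of 2 at least 2-fold higher. Over all genes the share of 2-fold calls that were higher was 74.8%, and 59.5% after centring.

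**Figure D1:**
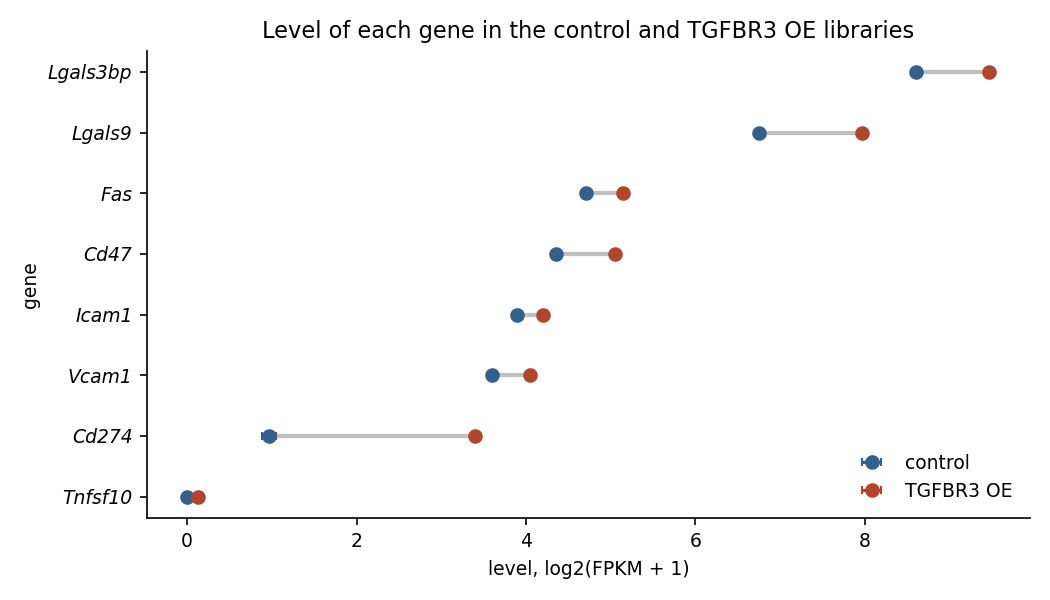
Level of each gene as log2(FPKM + 1) on the horizontal axis, 1 point per library (blue, control; red, TGFBR3 OE), with 95% Poisson intervals of the counts that are mostly narrower than the points. Lgals3bp is at the top with FPKM values of 389 and 706, and the longest line belongs to Cd274, from 0.95 to 9.57.

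The genes spanned a wide range of levels. By FPKM, which is a level per length, the order was Lgals3bp, Lgals9, Fas, Cd47, Icam1, Vcam1, Cd274 and Tnfsf10 in both libraries. No pair of neighbours in this order had overlapping counting intervals in either library, but the closest pairs were near each other: Fas and Cd47 were at 34.5 and 32.2 in TGFBR3 OE, and Icam1 and Vcam1 at 17.3 and 15.6. The spread between cultures is not known for these levels.

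Cd274 (ENSMUSG00000016496, chromosome 19 of mm10, 29367455 to 29388095, plus strand) had the largest log2 ratio of the genes. Its FPKM was 9.57 in TGFBR3 OE, from 2352 counts, and 0.95 in control, from 319 counts. The RNA of PD-L1 was thus scarce in the control library and ranked 10976th by FPKM there, against 4518th in TGFBR3 OE. The log2 ratio of (FPKM + 1) was 2.44 (95% interval 2.35 to 2.53), and among the 11213 genes averaging FPKM 1 or more 57 had a larger one. By the share of counts, with nothing added, Cd274 was 9.91-fold higher (95% interval 8.81 to 11.2), since the added 1 weighs on a gene this low in control. The centred value was 2.30, and 2.24 was left with the GC trend removed. An antisense gene, Gm36043, overlaps 511 bases (14.1%) of the Cd274 exons. It had 32 counts in TGFBR3 OE and 7 in control. The paper names a stranded library kit, but the strand setting of the counting was not given in the sources used here. Whether reads of the shared stretch were split by strand could therefore not be told.

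In GENCODE the start of Cd274 lies 65 bases from that of Plgrkt, a plasminogen receptor gene on the opposite strand. Whether both genes are driven from a shared stretch was not tested. The bases shown are the 47 between the GENCODE start of Plgrkt and the RefSeq start of Cd274 (GRCm38.p6, chr19:29367391-29367437, plus strand). They were chosen because the genes on either side of them differed in their change. No base is in capitals, since no searched motif matched here.
Cd274-Plgrkt gap: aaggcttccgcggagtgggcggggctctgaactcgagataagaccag
Plgrkt had FPKM values of 6.66 in TGFBR3 OE and 4.17 in control, a log2 ratio of 0.57 (95% interval 0.48 to 0.65), well under that of Cd274. The same held for the other genes within 200 kb of Cd274 and Pdcd1lg2. Jak2, the kinase that carries interferon-γ signals, was the highest of them, at FPKM 8.35 and 4.43 (log2 ratio 0.78 , 95% interval 0.71 to 0.85). Ric1 had a log2 ratio of 0.48, Insl6 one of 0.39 and Ermp1 one of 0.15, and Rln1, with 12 counts against 23, one of -0.03 (95% interval -0.08 to 0.03). Of the 7 analysed genes around this locus, Cd274 included, 6 had an interval above 0, against 46.1% of all genes, and the centred value of Ermp1 was only 0.06.

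**Figure D2:**
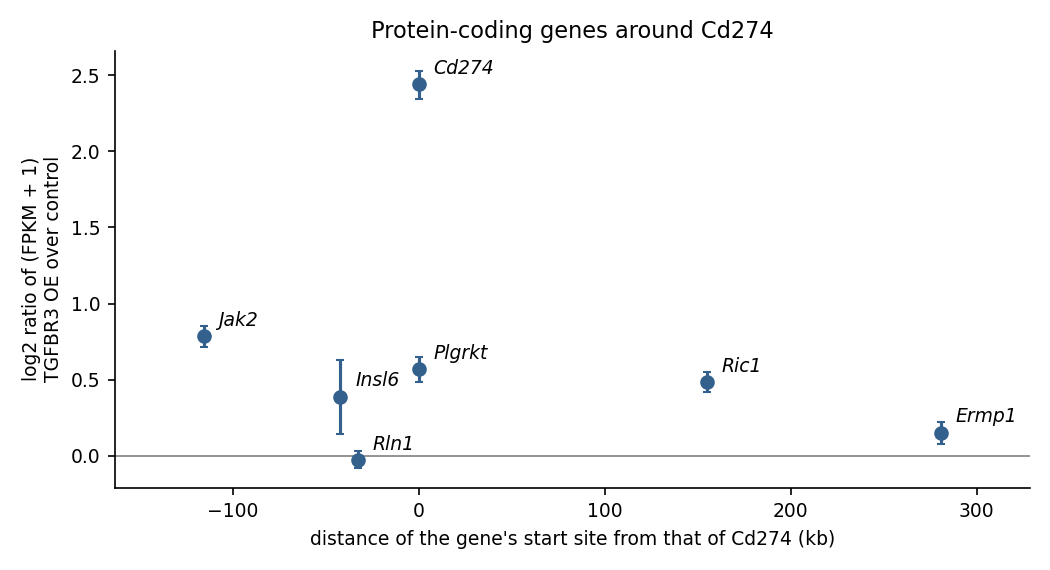
Log2 ratio of (FPKM + 1) of the protein-coding genes around Cd274 (vertical axis, with 95% counting intervals) against the distance of each gene's start site from that of Cd274 in kb. Cd274 is at 2.44, and Plgrkt, whose start is 65 bases away, at 0.57.

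Cd47 (ENSMUSG00000055447, chromosome 16, 49800533 to 49915010, plus strand) was more abundant than Cd274 in both libraries. Its FPKM was 32.2 in TGFBR3 OE, from 13729 counts, and 19.45 in control, from 11279 counts. This is a higher level in TGFBR3 OE by less than 2-fold, with a log2 ratio of 0.70 (95% interval 0.67 to 0.74) and a centred value of 0.55. Its receptor gene Sirpa was also expressed in these cells, at FPKM 22.9 and 27.9, with a log2 ratio of -0.27 (95% interval -0.31 to -0.23), the opposite direction to Cd47. Thbs1 and Thbs2, which encode secreted thrombospondins that bind CD47, differed little before centring, with log2 ratios of -0.07 and 0.02 (-0.22 and -0.13 centred). Thbs1 was abundant at FPKM 1049 and 1098. Qpctl, the enzyme that modifies the SIRPα-binding end of CD47, had FPKM values of 6.81 and 6.92.

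Lgals9 (ENSMUSG00000001123, chromosome 11, 78962974 to 78984946, minus strand) encodes galectin-9, a lectin that binds TIM-3 and other glycoproteins. Its FPKM was 248 in TGFBR3 OE, from 35974 counts, and 106 in control, from 20999 counts. The log2 ratio was 1.21 (95% interval 1.19 to 1.24), and Lgals9 remained at least 2-fold higher when centred (1.06) and after removal of the GC trend (1.28). By the share of counts it was 2.30-fold higher (95% interval 2.26 to 2.34). The 250 bases before its RefSeq start are shown because they alone, among the promoter windows searched (those of the 9 genes other than Vcam1), hold a match to the interferon-stimulated response element letters (GAAA, any 2 bases, GAAA, on either strand, in capitals), from 55 to 46 bases before the start. Of 32851 promoter windows of this length, 2.98% held such a match. The sequence is from GRCm38.p6, chr11:78984925-78985174, read on the minus strand, and its last 22 bases are exonic in GENCODE.
Lgals9 promoter: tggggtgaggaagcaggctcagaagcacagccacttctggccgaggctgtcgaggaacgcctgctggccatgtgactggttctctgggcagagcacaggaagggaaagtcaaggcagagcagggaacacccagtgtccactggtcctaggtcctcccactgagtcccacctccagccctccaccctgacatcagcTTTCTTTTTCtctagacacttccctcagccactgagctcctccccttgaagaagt
A match describes letters and not a bound site.

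Lgals3bp (ENSMUSG00000033880, chromosome 11, 118392751 to 118402092, minus strand) encodes a secreted glycoprotein that binds galectins, integrins and fibronectin. It had the highest level of the genes, with an FPKM of 706 in TGFBR3 OE, from 136316 counts, and 389 in control, from 102267 counts. It ranked 44th by FPKM in TGFBR3 OE and 103rd in control. The log2 ratio was 0.86 (95% interval 0.85 to 0.87) and the centred value 0.71, both short of 2-fold, whereas 1.10 was reached with the GC trend removed, at a GC content of 56.3%. In absolute FPKM this was the largest difference of the genes.

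Among the other galectins, 1 of 7 was at least 2-fold higher (1.73% of all genes) and none 2-fold lower (0.58%), with a median log2 ratio of 0.04. That one was Lgals8, at FPKM 26.9 and 12.6 (log2 ratio 1.04 , 95% interval 0.99 to 1.09), which was 0.89 when centred. Lgals1, the most abundant galectin gene, went the other way, from FPKM 1336 in control to 971 in TGFBR3 OE (log2 ratio -0.46, 95% interval -0.47 to -0.45). Lgals3 was at 189 and 162 (0.22), and its centred value was 0.07. The proteins of Lgals1 and Lgals3 are known to bind that of Lgals3bp. Lgals12, Lgals4, Lgals2 and Lgals7 were all under FPKM 1 in both libraries.

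Icam1 (ENSMUSG00000037405, chromosome 9, 21015985 to 21028817, plus strand) encodes the ligand of the leukocyte integrin LFA-1. Its FPKM was 17.3 in TGFBR3 OE, from 5125 counts, and 13.85 in control, from 5580 counts. The difference was small, with a log2 ratio of 0.30 (95% interval 0.25 to 0.35) and a centred value of 0.16, and among the 11213 genes averaging FPKM 1 or more 3808 had a larger ratio. The antisense gene Gm47079 overlaps 11.7% of the Icam1 exons and had 46 and 0 counts. The 250 bases before its RefSeq start (GRCm38.p6, chr9:21015690-21015939, plus strand) are shown as the only searched window with matches to 2 motifs. The capitals mark an NF-κB-type match and a match to the STAT site letters. The first (GGANNTTCC, matched in both strand directions) lies from 153 to 145 bases before the start. The second (TTCNNNGAA) lies from 42 to 34 bases before the start. Of all promoter windows, 3.59% and 7.02% held these motifs on either strand.
Icam1 promoter: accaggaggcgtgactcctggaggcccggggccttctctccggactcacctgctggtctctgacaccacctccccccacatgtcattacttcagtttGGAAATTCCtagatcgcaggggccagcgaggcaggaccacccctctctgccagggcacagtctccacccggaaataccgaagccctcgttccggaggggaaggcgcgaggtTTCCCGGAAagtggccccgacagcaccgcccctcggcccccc
The match letters say nothing of which factors were bound.

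Vcam1 (ENSMUSG00000027962, chromosome 3, 116109949 to 116129688, minus strand) encodes the ligand of the integrin VLA-4. Its FPKM was 15.6 in TGFBR3 OE, from 9365 counts, and 11.2 in control, from 9150 counts. The log2 ratio was 0.45 (95% interval 0.41 to 0.48), the centred value was 0.30, and 0.14 was left with the GC trend removed. Endothelial cells and leukocytes also make ICAM-1 and VCAM-1. The FAPs were sorted by flow cytometry, and antibodies to CD31 and CD45, surface proteins of these cell types, are among those the study lists. Marker genes of both types were scarce. The 8 endothelial markers summed to FPKM 3.88 and 3.62, and 5 of them had an interval above 0 and 1 had one below. By counts, Kdr had 262 in TGFBR3 OE and 65 in control (log2 count ratio 2.44, 95% interval 2.04 to 2.85). Emcn had 27 and 3, Cldn5 23 and 0, Pecam1 24 and 8, and Vwf 73 and 41. These 5 markers were higher in the same library as Icam1 and Vcam1. The others were not: Cdh5 was lower, at 165 and 328 counts. Egfl7 (FPKM 1.42 and 1.56) and Tek (1.04 and 1.09), the markers with the highest FPKM, were slightly lower, with intervals that held 0. The 10 leukocyte markers analysed summed to 0.89 and 0.53, led by Csf1r at 0.46 and 0.39. Of the leukocyte markers, 3 had an interval above 0: C1qb at 20 and 0 counts (FPKM 0.27 and 0), Laptm5 at 35 and 19, and Itgam at 11 and 0. The interval lay below 0 for 1, C1qa, at 0 and 8 counts. Ptprc was at 0 and 4 counts, and Adgre1, Tyrobp and Fcer1g were at 0 in both libraries. The 3 muscle cell markers analysed summed to 1.60 and 1.30. The part of other cells in these values was not tested, and in bulk RNA a change in the number of cells of a type and a change in RNA per cell cannot be told apart.

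The lists of related genes that follow share some members. Across 22 other leukocyte adhesion genes, none was 2-fold changed in either direction on the (FPKM + 1) scale, and the median log2 ratio was 0.02. The interval lay above 0 for 9 and below 0 for 7, against 46.1% and 22.8% of all genes. Ezr (0.81), which encodes a linker between membrane proteins and actin, was the highest, followed by Jam2 (0.67), Cd44 (0.65), Rdx (0.56) and F11r (0.51). Aoc3 was the lowest, at FPKM 9.17 and 13.35 (-0.50, and -0.63 centred), and Cd151 was at 128 and 165 (-0.36). Cd44, a hyaluronan receptor, was at FPKM 59.7 and 37.6. Among genes under FPKM 1 the log2 ratio of counts was larger. It was 2.01 for Pecam1 (95% interval 0.81 to 3.38) and 1.61 for Podxl (0.92 to 2.33). For Icam4 it was -2.51 (-4.89 to -0.78) and for Icam5 -1.06 (-1.49 to -0.64). The endothelial selectins Sele and Selp were near 0, at 10 and 12 counts for Sele and 12 and 15 for Selp. Of the integrin genes whose proteins bind ICAM-1 or VCAM-1, Itgal (10 and 4 counts), Itgam (11 and 0) and Itga4 (53 and 72) were nearly absent, and Itgb2 was at FPKM 1.12 in both libraries. Itgb1, which stromal cells use for matrix, was abundant at 292 and 230 (log2 ratio 0.34), and Itgb7 was at 1.47 and 0.59 (0.64).

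Tnfsf10 (ENSMUSG00000039304, chromosome 3, 27317028 to 27342427, plus strand), the gene of TRAIL, was close to absent. It had 31 counts in TGFBR3 OE, an FPKM of 0.09, and 0 counts in control. By the share of counts, with the floor of 3 counts in the control library, this is at least 13.9-fold higher in TGFBR3 OE, taking the 31 counts as exact, and the counting interval of the ratio starts at 10.6-fold. On the scale of (FPKM + 1) the log2 ratio was 0.12, because the added 1 exceeds the level, and with an added 0.01 it was 3.32. The receptors for TRAIL were well expressed by comparison. Tnfrsf10b, the death receptor, was at FPKM 12.02 and 9.24 (log2 ratio 0.35). The decoy receptor genes Tnfrsf22 and Tnfrsf23 were at 6.29 and 3.42 (0.72) and at 52.7 and 33.1 (0.66). Tnfrsf11b, the secreted decoy osteoprotegerin, was at 5.50 and 2.72 (0.81). All 4 receptor genes were higher in TGFBR3 OE by less than 2-fold, and each stayed above 0 when centred.

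Fas (ENSMUSG00000024778, chromosome 19, 34290666 to 34327772, plus strand) encodes the receptor of FAS ligand and is also a known p53 target. Its FPKM was 34.5 in TGFBR3 OE, from 4830 counts, and 25.1 in control, from 4778 counts. The counts were thus nearly equal, and the levels differ after scaling to the smaller total of the TGFBR3 OE library. The log2 ratio was 0.45 (95% interval 0.39 to 0.50), 0.30 when centred and 0.18 with the GC trend removed, at a GC content of 43.8%. The window before its RefSeq start (GRCm38.p6, chr19:34290409-34290658, plus strand) is shown as the other one with a match to the STAT site letters, in capitals from 93 to 85 bases before the start.
Fas promoter: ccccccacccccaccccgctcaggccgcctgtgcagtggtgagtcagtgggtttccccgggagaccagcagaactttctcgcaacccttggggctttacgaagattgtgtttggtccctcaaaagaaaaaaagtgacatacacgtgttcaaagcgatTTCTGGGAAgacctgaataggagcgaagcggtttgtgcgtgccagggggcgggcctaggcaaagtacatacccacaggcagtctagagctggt
The windows of Cd274, Pdcd1lg2, Cd47, Lgals3bp and Tnfsf10 held no match to the 3 motifs, which says only that these letters are not in them.

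**Figure D3:**
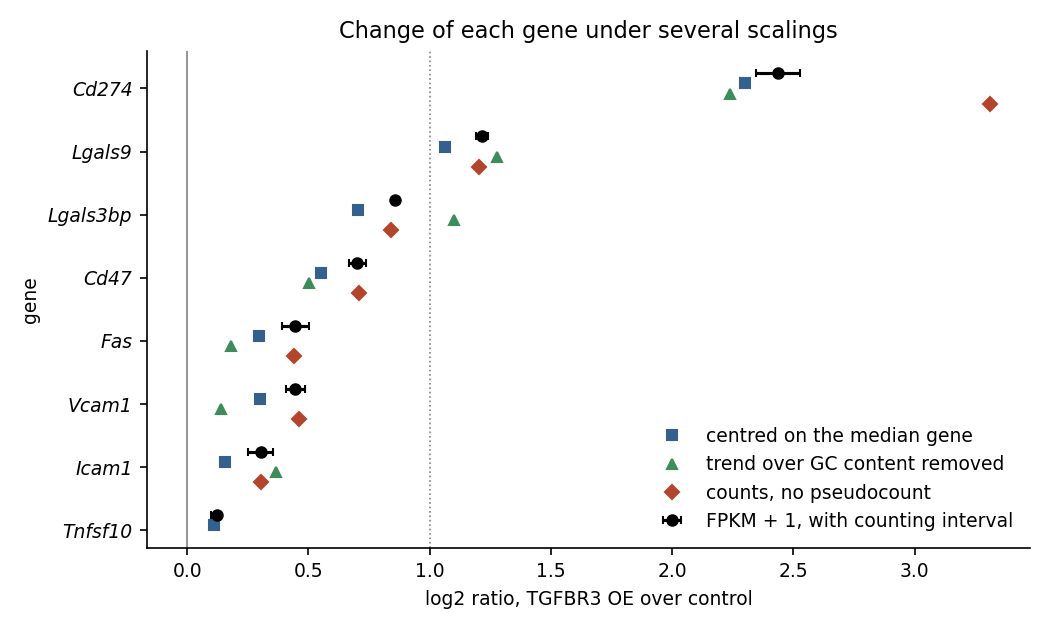
Log2 ratio of each gene, TGFBR3 OE over control, on 4 scales: FPKM + 1 with its 95% counting interval (black), centred on the median gene (blue squares), with the GC trend removed (green triangles) and from counts with nothing added (red diamonds). The dotted line is 2-fold. Every point lies above 0, Vcam1 and Fas fall to 0.14 and 0.18 with the GC trend removed, and Tnfsf10 has values on only 2 of the scales.

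The death receptor pathway around Fas and Tnfsf10 had no 2-fold change on the (FPKM + 1) scale in 22 genes over the floor. Of these genes, 16 had an interval above 0 and 3 one below, against 46.1% and 22.8% of all genes. The median log2 ratio was 0.47 (0.34 centred). Among the higher ones were Tnfrsf11b (0.81), the apoptosis inhibitor gene Birc2 (0.79), Daxx (0.78) and Tnfrsf22 (0.72). Casp8, the initiator caspase, had FPKM values of 16.4 and 9.68 (0.70), and Cflar, which encodes its inhibitor cFLIP, 12.3 and 7.66 (0.62). Tnfrsf1a, the main receptor of tumour necrosis factor, was lower, at 94.6 and 115 (-0.28). Its value was -0.44 when centred, but only -0.04 with the GC trend removed. Fasl was not analysed here.

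The 17 genes over the floor among other B7 family and checkpoint or costimulatory ligands held no 2-fold change on the (FPKM + 1) scale, and their median log2 ratio was 0.15 (0.13 centred). Of these, 11 had an interval above 0 and 4 one below, against 46.1% and 22.8% of all genes. Cd24a (0.63) and Pvr (0.61) were the highest. Cd276, which encodes B7-H3, was the lowest at -0.63 (95% interval -0.70 to -0.55), from 1491 counts against 3313. Cd80, whose protein binds both CD28 and PD-L1, was at 6.68 and 4.75 (0.42), and Icosl at 0.55 and 0.19 (0.38). By counts Icosl was beyond 2-fold, with a log2 ratio of 1.46 (95% interval 1.08 to 1.85), and Cd24a had one of 1.05 (0.81 to 1.29). Tnfsf18, at only 22 and 8 counts, had one of 1.89 (0.66 to 3.26). Cd86, Cd48 and Cd70 were at 0 counts in both libraries, under the floor of 3 counts.

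**Figure D4:**
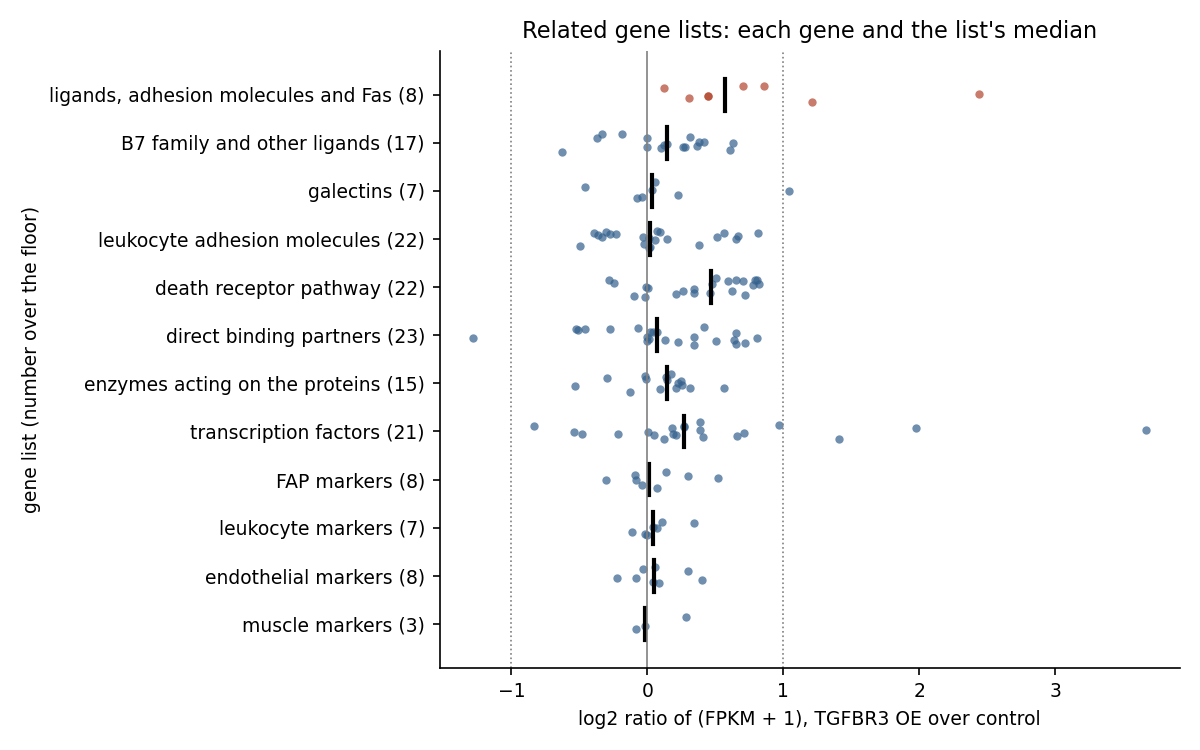
Log2 ratio of (FPKM + 1) of each gene over the floor (points, with random vertical offsets) and the median (black bar) in each list. The ligands, adhesion molecules and Fas (red) have a median of 0.57 with all 8 above 0, the death receptor pathway one of 0.47.

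Of 23 genes over the floor that encode direct binding partners of the 8 proteins or of PD-L2, 1 was at least 2-fold lower (0.58% of all genes) and none 2-fold higher (1.73%). That gene was Fn1, fibronectin, at FPKM 577 and 1403 (log2 ratio -1.28). The median was 0.07. Pdcd1, which encodes PD-1, had 0 counts in both libraries, and Rgmb, a receptor of PD-L2, had FPKM values of 3.50 and 3.29 (0.07, and -0.05 centred). Havcr2, the gene of the galectin-9 receptor TIM-3, was detected at 5.13 and 3.31 (0.51). P4hb, whose product binds galectin-9 at the cell surface, was at 553 and 798 (-0.53). Itgav and Itgb3, the integrin pair linked to CD47, were at 15.9 and 14.4 (0.13, and -0.01 centred) and at 0.85 and 1.64 (-0.51).

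The 15 genes of enzymes and partners that act on these proteins had no 2-fold change on the (FPKM + 1) scale and a median of 0.15, which was 0.00 when centred. Cmtm6, which keeps PD-L1 at the cell surface, was at FPKM 12.8 and 12.9 (-0.01), so it did not follow Cd274. Stt3b (0.56), a glycosylation enzyme, and Stub1 (-0.53), a ubiquitin ligase, lay at the ends on that scale. By counts Mmp9, a secreted protease, was lower still, at 24 and 117 counts (log2 ratio of counts -1.86, 95% interval -2.56 to -1.22), and Adam10 and Adam17, sheddases of several of these proteins, were at 0.25 and 0.14.

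Among 21 transcription factor genes known to act on the 9 genes, 3 were at least 2-fold higher (1.73% of all genes) and none 2-fold lower (0.58%). The median log2 ratio was 0.27 (0.13 centred). Among the 3 were Irf7 (3.67, FPKM 279 and 20.98) and Stat2 (1.41, 48.5 and 17.6), both of the interferon response, and Irf9 was just short of 2-fold at 0.97. Irf1, which is known to act on Cd274, was at 18.0 and 10.6 (0.71). Irf3 was lower, at 5.71 and 8.76 (-0.54). The NF-κB genes differed by less than 2-fold. In brackets are the centred value and then the value with the GC trend removed. Nfkb1 was at 0.27 (0.13, 0.31), Rela at 0.01 (-0.14, 0.27), Nfkb2 at -0.21 (-0.36, 0.05) and Relb at -0.48 (-0.61, -0.21). Cebpb was the lowest, at -0.83.

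**Figure D5:**
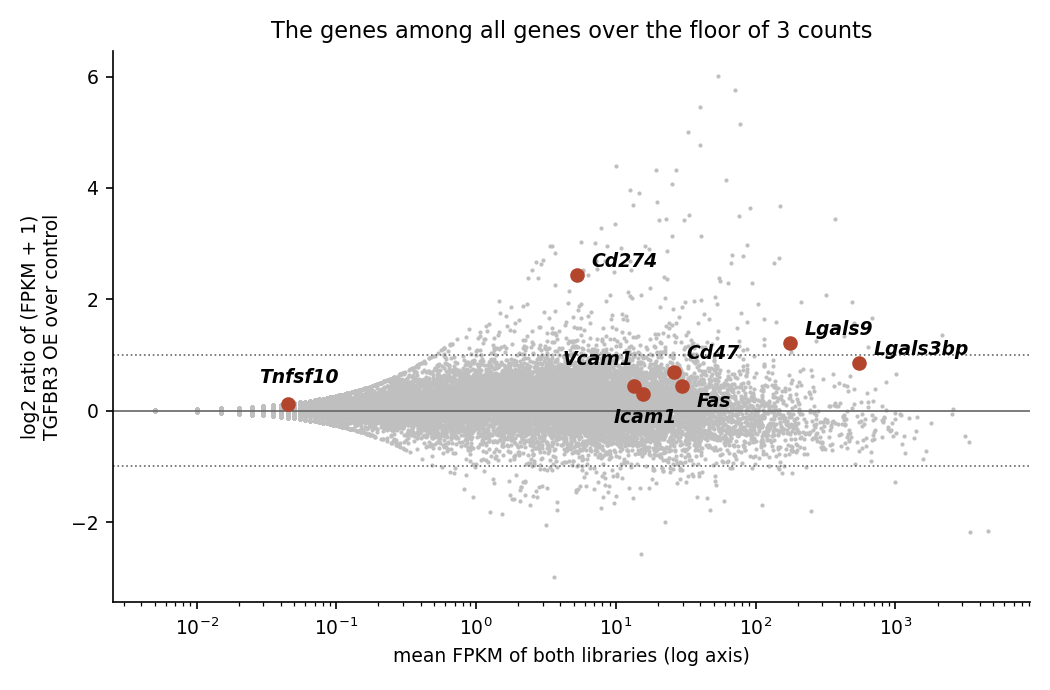
Log2 ratio of (FPKM + 1) against the mean FPKM of both libraries (log axis) for genes with more than 3 counts in at least 1 library (grey), with the 8 genes in red and 2-fold as dotted lines. Cd274 and Lgals9 lie above the upper line, and Tnfsf10 lies at the left, where the added 1 holds all ratios near 0.

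Over the 2 libraries, the genes nearest to Cd274 in their pair of log2(FPKM + 1) values were Gvin1 (FPKM 10.5 and 1.01, at a distance of 0.13), Gm4070 (10.7 and 1.04, 0.16) and Herc6 (8.15 and 1.06, 0.22). With 2 libraries such likeness says only that level and change were alike. No such genes are given for Tnfsf10, whose level lies under the minimum mean FPKM of 1 set for the search.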

How the data were processed

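The authors deposited, for each gene of each library, the raw count and the FPKM, rounded to 2 decimals. The paper names STAR and FeatureCounts on mm10. The submitters' processing notes name cutadapt 1.9, HISAT2 2.2.1, StringTie 2.1.6, DESeq2 and edgeR, and which of these made the columns could not be told. The deposited FPKM values depend on a library total, so composition shifts all genes of a library together.

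Genes were joined by identifier. Genes were compared by log2 of (FPKM + 1) in TGFBR3 OE minus that in control, with a threshold of 1 or -1. Intervals were exact Clopper-Pearson intervals at 95% for how each gene's counts split between the libraries, put on that scale, and exact Poisson intervals for levels. The floor was 3 counts. No count model was fitted, since each group is 1 library. Reads are not independent molecules, so intervals are too narrow. GC and exon length trends were removed as medians of 20 bins over 11207 genes, keeping the overall median. Coordinates are from GENCODE M21 (mm10), which holds 99.7% of the identifiers, and promoters, for 8 of the 9 genes, from RefSeq on GRCm38.p6.

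The members and gene lists were chosen with earlier results of these data known. Named list genes are up to 5 per list with the largest ratios, plus binding partners, genes within 200 kb of Cd274 and Pdcd1lg2, and the nearest 3 genes by level. Casp8, Cflar, Tnfrsf1a, Irf1, Irf3, Sele, Selp, Qpctl, Cmtm6, Adam10, Adam17, Cd86, Cd48, Cd70, Tnfsf18, Podxl, Icam4, Icam5, Aoc3, Cd151, Pecam1, Vwf, Tek and the NF-κB genes were named after their values were seen. Some genes that the rule names are not reported here. Calculations were tested on simulated counts. Python 3.11.15, pandas 2.3.3, NumPy 2.4.6 and SciPy 1.17.1 were used.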

Additional observations from a re-analysis of the deposited data

How the results depend on the processing

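All 8 genes kept a value above 0 in all 60 recalculations that gave a value, and none was 2-fold lower in any. Part of the 60 could not change a sign. A smaller pseudocount keeps the sign of the FPKM difference, the filter on FPKM returns the main value, and Tnfsf10 had 0 counts in control. The count of genes at least 2-fold higher was 2 or 3 under every change of scale: it was 3 with a pseudocount of 0.01, which added Tnfsf10, and after removal of the GC trend, which added Lgals3bp. It was 4 at a threshold of 1.5-fold and 1, Cd274, at 4-fold. The median log2 ratio, 0.57 over 8 genes, was 0.79 with a pseudocount of 0.1 or 0.01, 0.43 centred and 0.64 as CPM, and over the 7 genes without Tnfsf10 it was 0.70 with a filter on FPKM, 0.71 as the plain ratio of counts, 0.50 with the GC trend and 0.64 with the exon length trend removed. Of the 21364 genes over the floor, 369 were higher and 124 lower 2-fold. For the same genes it was 1898 and 678 with a pseudocount of 0.1 and 4039 and 2097 with 0.01. It was 638 and 197 as CPM, and 276 and 188 centred. Plain ratios exist for 17985 genes, of which 2337 were higher and 782 lower. With the GC trend removed, 309 and 81 of 11207 genes were called (2.76% and 0.72%). On the main scale, 352 and 116 of the 11213 genes averaging FPKM 1 or more were (3.14% and 1.03%). The cause of these moves was not tested. The pseudocount decides the value of Tnfsf10, from 0.12 to 3.32, and depth limits it, at 31 counts. No paired analysis was possible because each group has 1 library, and no library could be left out.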
